A study of Homo sapiens with 8 samples.

Results

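Saos-2 is a cell line from a human osteosarcoma, long established in culture, that carries no p53. Cells of this line treated for 12 h with a compound the labels call Prima (2 arrays, replicates 1 and 3) were compared with untreated cells (3 arrays, replicates 1, 2 and 3). These are 5 of the 8 arrays of the series, chosen by their titles. The other 3 arrays, of cells treated for 6 h, are not compared here. They entered the estimate of the spread, the signal floor, the choice and filter of probe sets, and the check of replicate numbers. Both groups lack p53, all arrays come from 1 line, and the labels give neither a dose nor a vehicle. A 12 h replicate 2 was not analysed here. The study asked how transcription across the genome responds to the compound in cells without p53.

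Several stress pathways bear on such a treatment, and they work through different sensors. In the integrated stress response, kinases that sense amino acid shortage, misfolded protein or lack of haem phosphorylate the initiation factor eIF2, bulk translation slows, and the mRNA of the transcription factor ATF4 is translated more, which raises genes of amino acid uptake, amino acid synthesis and tRNA charging. The factor NRF2 is freed from its inhibitor KEAP1 when thiols are modified and drives antioxidant genes, and the heat shock factor HSF1 is freed by unfolded protein and drives chaperones. The name Prima is also borne by a family of compounds studied for restoring mutant p53, whose reactive product binds thiols; the labels do not say whether the compound used belongs to it.

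Values are MAS5 signals, 1 number per probe set on a linear scale on which every array has a 2% trimmed mean of 100.01. Each gene is given by its brightest probe set, and 12063 genes were bright enough to be tested. Median signal was 22.9, 50.8 and 15.6 on untreated replicates 1, 2 and 3 and 21.8 and 14.2 on 12 h replicates 1 and 3, so untreated replicate 2 stood apart from the rest. It has no 12 h partner. The differences below are therefore given within replicate 1 and within replicate 3 (12 h minus untreated, log2), which share no array and leave untreated replicate 2 out, and then for the groups over all arrays. The ratio of ACTB probe sets at the 3′ and 5′ ends of the transcript, which rises as RNA degrades, was 2.29 on 12 h replicate 1 and 1.12 to 1.37 on the other 4 arrays, while that of GAPDH ran from 0.927 to 1.04; the part of this in the replicate 1 differences was not tested. The cell type matched its label in part: RUNX2, the osteoblast master factor, read 1620 to 2067. SPARC and COL1A1, both bone matrix genes, read 1815 to 2404 and 2794 to 3704. The other measured markers were far lower: DLX5 read 356 to 439, and SP7, ALPL and MSX2 read 93.3 to 286. COL1A2, IBSP, SPP1 and PTH1R read 5.41 to 99.6. The 11 measured osteoblast markers summed to 7454 to 8929 in untreated and 8887 to 9082 in 12 h arrays, mostly from RUNX2, SPARC and COL1A1. Leukocyte, endothelial, adipocyte and muscle markers summed to at most 187 on any of the 5 arrays, highest on untreated replicate 2 in each list, and epithelial markers to 617 to 982, mostly KRT18.

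After 12 h, the factors of the integrated stress response and a list of further ATF4 targets stood higher within both replicates more often than genes at large (9 of 12 and 11 of 15). So did collagens with their processing enzymes (17 of 23), while genes of amino acid synthesis and one-carbon metabolism did not (5 of 15). Mitochondrial ribosomal protein genes stood lower within both replicates more often than genes at large (19 of 34), but over the groups, with untreated replicate 2 included, 23 of the 34 were above 0. No single gene passed the test. With limma, 0 of 12063 genes (0%) were higher and 0 (0%) lower at a Benjamini-Hochberg adjusted p of 0.05, the smallest adjusted p was 0.9999, and 74 genes had an unadjusted p under 0.05 (33 higher, 41 lower). With the replicate number as a block the count was again 0, with 262 genes under an unadjusted 0.05, and weighting the arrays also left 0, with 634. By the threshold alone about 603 of the 12063 genes would fall under 0.05, more than the 74 or the 262. With so few arrays, 0 calls do not show that no gene responded. The median standard error of a log2 difference was 0.39, and an exact permutation test of 2 arrays against 3 cannot go below p = 0.2. The labels do not say whether replicates were separate cultures, so these p-values measure the spread between samples, which may be technical.

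The background against which each gene group is read is as follows. Of all genes tested, 59.9% were above 0 in the group difference, 34% were above 0 within both replicates and 25% below 0 within both. Within replicate 1 alone 6898 of the 12063 genes were above 0, and within replicate 3 alone 6247. Both 12 h arrays lay above all 3 untreated arrays for 9.6% of genes and below all of them for 4.89%. Over all genes the median difference was 0.06 within replicate 1, 0.01 within replicate 3 and 0.08 for the groups.

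How far the replicates matched depended on signal. Over all 12063 genes the 2 within-replicate differences had the same sign for 59.0% of genes and a Pearson correlation of 0.12. Among 1106 genes with a mean signal under 30 the correlation was 0.02 and 48.6% had the same sign. It was 0.12 among 3871 genes from 30 to 100, 0.30 among 3311 genes from 100 to 300 and 0.39 among 3775 genes at 300 or more, where 63.9% had the same sign. These are correlations across genes, which are not independent replicates, and points of 1 replicate share 2 arrays. A difference of at least 1.5-fold within both replicates was reached upward by 171 genes (1.42%) and downward by 171 (1.42%). Most were dim: in the 7086 genes with a mean signal of at least 100 over the 5 arrays, 17 were up and 8 down by that much.

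**Figure D1:**
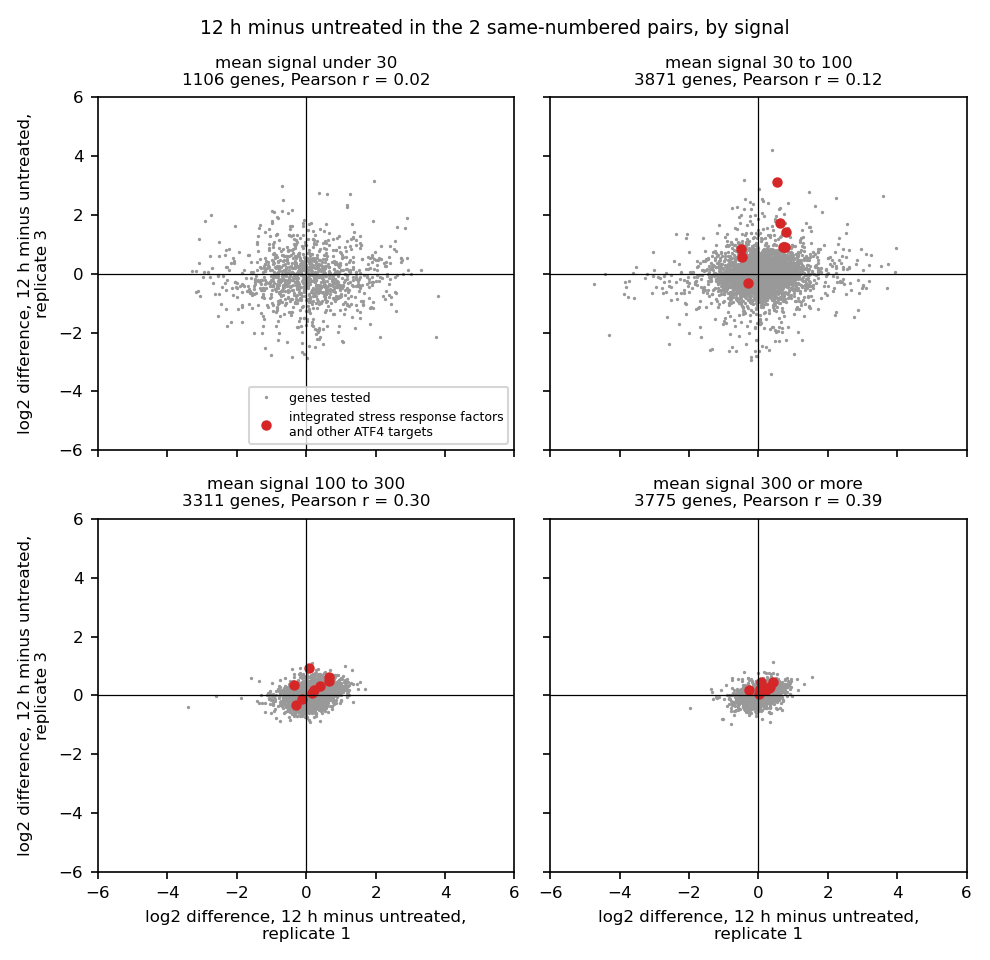
Each point is 1 gene, placed by its log2 difference (12 h minus untreated) within replicate 1 on the horizontal axis and within replicate 3 on the vertical axis, in 4 panels by mean signal; red points are tested genes of the integrated stress response factors and other ATF4 targets. The cloud is round at low signal (r = 0.02) and drawn out along the diagonal at a signal of 300 or more (r = 0.39).

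The 12 genes at the upper end of the rule for bright genes, which ranks by the smaller of both within-replicate differences, were RAPGEF1, HECTD3, EXOSC6, SBF1, VARS1, DNAJC5, ORMDL3, NHSL3, SCARF2, SUN2, MEN1 and NF2. ORMDL3, a regulator of sphingolipid synthesis in the ER membrane, read 101, 103 and 108 in untreated replicates 1, 2 and 3 and 173 and 172 in 12 h replicates 1 and 3. Its 12 h arrays lay well apart from all 3 untreated arrays, with a log2 difference of 0.73 ± 0.38 (SE), but 1 other probe set of the gene was below 0 within both replicates. NHSL3 read 121, 76.6 and 134 untreated and 194 and 245 at 12 h, a difference of 1.02 ± 0.35. RAPGEF1, an exchange factor for the small GTPase RAP1, read 86.9, 132 and 44.5 untreated and 188 and 89.2 at 12 h. It had the largest smaller difference of the rule (1.11 within replicate 1 and 1.00 within replicate 3), yet the groups overlapped, with untreated replicate 2 above 12 h replicate 3.

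The others included the valyl-tRNA synthetase VARS1, which is described with the synthetases below, and DNAJC5, a synaptic vesicle co-chaperone, which read 86.9, 129 and 88.1 untreated and 163 and 142 at 12 h. The tumour suppressors MEN1, a scaffold of a histone methyltransferase complex, and NF2, a regulator of the Hippo pathway, read 97.3, 220 and 95.0 against 166 and 148, and 215, 237 and 127 against 380 and 196. For both, untreated replicate 2 was above at least 1 of the 12 h arrays. EXOSC6, a subunit of the RNA exosome, had 0.84 and 0.70 within the replicates, and SUN2, a nuclear envelope protein, 0.80 and 0.66. In 5 of the 12 genes (SBF1, VARS1, DNAJC5, ORMDL3 and NHSL3) the groups did not overlap, against 9.6% of all genes with both 12 h arrays above. The 12 were picked on mostly the same arrays, so a higher share follows in part from the rule. Of 21 other probe sets of these genes 4 were above 0 within both replicates and 4 below, and averaging probe sets turned the group difference of RAPGEF1, EXOSC6 and SBF1 below 0. The last gene inside the rule was NF2 with 0.63 and the first outside PPP1R15A, also with 0.63.

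At the lower end stood NAA15, MALAT1, FAM76B, RAB12, DDX59, COX3, DUSP10, SOCS2, GPR183, TIMM8A, RBM7 and TMEM69. NAA15, the auxiliary subunit of the major N-terminal acetyltransferase, read 584, 341 and 612 untreated and 281 and 350 at 12 h. Within the replicates it stood at 0.48-fold and 0.57-fold of untreated. MALAT1, an abundant nuclear long non-coding RNA, read 1648, 753 and 914 untreated and 812 and 524 at 12 h. In both genes untreated replicate 2 lay between the 12 h arrays, so the groups overlapped.

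The groups did not overlap for 3 of these 12 genes, against 4.89% of all genes with both 12 h arrays below. These 12 too were picked on mostly the same arrays. RBM7, a subunit of the complex that targets nuclear RNA to the exosome, read 676, 648 and 774 untreated and 388 and 531 at 12 h, a log2 difference of -0.62 ± 0.28 (SE). TIMM8A, a chaperone of the mitochondrial intermembrane space, read 134, 129 and 109 against 88.5 and 73.0 (-0.62 ± 0.33). DUSP10, a phosphatase of stress-activated kinases, read 108, 106 and 142 against 53.3 and 94.1 (-0.73 ± 0.44). Of 28 other probe sets of the 12 genes, 14 were below 0 within both replicates, 6 of them among the 11 of MALAT1, and 2 were above.

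The remaining genes at the lower end were more uneven between arrays. SOCS2, a feedback inhibitor of cytokine signalling, read 269, 212 and 357 untreated and 174 and 238 at 12 h, and GPR183, an oxysterol receptor, read 383, 132 and 283 against 168 and 189. COX3, a mitochondrially encoded subunit of cytochrome oxidase, read 639, 368 and 329 against 392 and 208. RAB12, a small GTPase of endosomal traffic, read 821, 24.3 and 58.6 against 447 and 34.3, so that its group difference was 0.23 ± 1.32 although both within-replicate differences were negative (-0.88 and -0.77). After quantile normalization the group difference of DDX59 turned above 0, and under median centring those of FAM76B, DDX59, COX3, SOCS2, GPR183 and TMEM69 did. TMEM69 was the last gene inside the rule with -0.54 and TNFRSF11B the first outside with -0.53.

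Transcription factors and feedback regulators of the integrated stress response stood higher within both replicates in 9 of 12 tested genes (75%, against 34% of all genes) and lower in 2. Their median difference was 0.27 within replicate 1, 0.29 within replicate 3 and 0.40 for the groups. ATF4 itself read 1155, 825 and 1179 untreated and 1464 and 1427 at 12 h. Both 12 h arrays lay above all untreated arrays, 1.27-fold within replicate 1 and 1.21-fold within replicate 3, and the group difference was 0.48 ± 0.26 (SE). ATF5, a related factor translated under the same stress, read 68.9, 114 and 42.0 against 114 and 78.8. PPP1R15A, the stress-induced subunit that brings a phosphatase to eIF2 and so ends the response, read 101, 200 and 132 against 161 and 204. For both of these, untreated replicate 2 was at the level of the 12 h arrays, while the within-replicate differences were 0.72 and 0.91 for ATF5 and 0.67 and 0.63 for PPP1R15A. The mean over the ATF5 probe sets had a group difference of -0.14.

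Other members were less clear. ATF3, a target of ATF4, read 91.5, 52.0 and 113 untreated and 121 and 140 at 12 h, but neither of 2 other probe sets was above 0 within both replicates, and the mean over its probe sets had a difference of -0.33. NUPR1, a small stress-induced chromatin protein, was dim, at 34.7, 8.38 and 18.1 against 59.1 and 33.8. DDIT3, the factor known as CHOP that promotes death under prolonged stress, read 64.7, 62.4 and 113 untreated and 52.2 and 91.3 at 12 h. Its difference was -0.31 within each replicate, opposite to ATF4, and quantile normalization turned its group difference above 0. TRIB3, a pseudokinase that restrains ATF4, stood at -0.49 within replicate 1 and 0.83 within replicate 3.

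**Figure D2:**
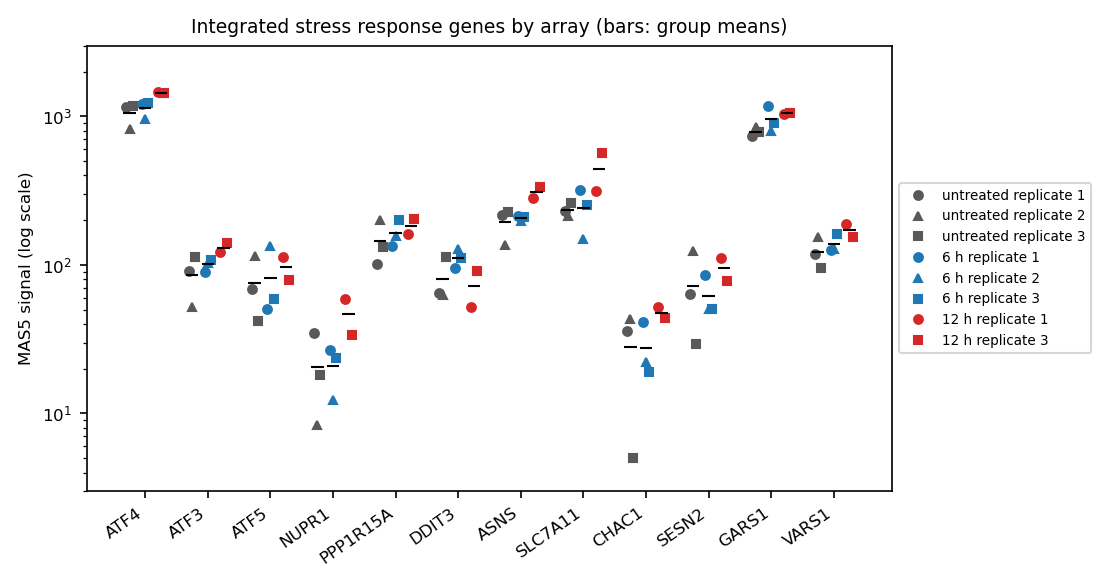
MAS5 signal (log axis) of 12 genes of the integrated stress response on each of the 8 arrays, untreated in grey, 6 h in blue and 12 h in red, with the shape giving the replicate number and the bar the group mean. Both red points lie above all grey points for ATF4 (1464 and 1427 against at most 1179), ASNS, SLC7A11 and GARS1, and overlap them for DDIT3 and ATF5.

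Amino acid transporters and biosynthetic enzymes, which ATF4 raises when amino acids run short, split. Of 12 tested transporters 6 were above 0 within both replicates and 1 below, with a median of 0.07 within replicate 1 and 0.35 within replicate 3, where 11 of 12 were above 0. SLC7A11, the cystine importer that feeds glutathione synthesis, read 232, 214 and 261 untreated and 313 and 571 at 12 h. Its 12 h arrays were both above all untreated arrays but far from each other, 1.35-fold within replicate 1 and 2.19-fold within replicate 3, and of 2 other probe sets 1 was above 0 and 1 below 0 within both replicates. SLC7A5, the exchanger for large neutral amino acids, read 251, 407 and 264 against 482 and 368. SLC36A1, a lysosomal amino acid exporter, read 53.9, 52.4 and 56.4 against 80.1 and 76.0, with little spread inside either group, and SLC43A1, another carrier of neutral amino acids, 27.9, 31.6 and 22.3 against 68.8 and 38.0.

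Of 15 tested genes of amino acid synthesis and one-carbon metabolism, 5 were above and 5 below 0 within both replicates, with medians of 0.06 and -0.04 (0.13 and 0.10 under median centring). ASNS, which makes asparagine, read 215, 137 and 228 untreated and 281 and 336 at 12 h, a group difference of 0.70 ± 0.31 (SE), with a 1.30-fold level within replicate 1 and 1.47-fold within replicate 3. The mean over its probe sets had a difference of -0.03. PSAT1, of serine synthesis, read 786, 593 and 684 against 817 and 877, and SESN2, a leucine sensor that restrains mTORC1, 63.6, 123 and 29.4 against 111 and 78.0. CBS, which makes cystathionine, was above 0 by 0.20 and 0.05 within the replicates. On the other side CTH, which makes cysteine from cystathionine, read 154, 144 and 169 against 119 and 146.

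The cytosolic tRNA synthetases, which charge tRNAs with amino acids, stood above 0 within both replicates in 9 of 17 tested genes and below in 4, with medians of 0.18 and 0.03. GARS1, the glycyl-tRNA synthetase, read 736, 845 and 789 untreated and 1043 and 1056 at 12 h. VARS1 read 118, 153 and 95.0 against 190 and 154, a difference of 0.69 within each replicate. In both genes, and in CARS1 (631, 395 and 663 against 856 and 752), the 12 h arrays lay above all untreated arrays, by a narrow margin in VARS1. Of 3 other CARS1 probe sets 1 was above 0 and 1 below 0 within both replicates. LARS1 and KARS1, for leucine and lysine, stood at -0.14 and -0.34, and at -0.07 and -0.26. Mitochondrial synthetases stood above 0 within both replicates in 5 of 15 genes and below in 3, close to the share among all genes.

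Of 15 further ATF4 targets, 11 were above 0 within both replicates and 1, EIF4EBP1, was below, with medians of 0.17 within replicate 1 and 0.36 within replicate 3. SESN2 is 1 of the 11 and is also counted in the amino acid synthesis list. CHAC1, an enzyme that degrades glutathione, read 36.0, 43.0 and 4.99 untreated and 51.8 and 43.6 at 12 h, so that its 8.74-fold difference within replicate 3 rests on 1 untreated value close to the floor of 2.39. STC2, a secreted glycoprotein of stressed cells, read 112, 157 and 96.1 against 178 and 136, and 1 other probe set was also above 0 within both replicates. JDP2, a repressor of the AP-1 family, read 30.4, 154 and 1.22 against 46.5 and 7.83, a spread far wider than its differences. Relative to the median of all genes, the stress response factors stood 0.21 and 0.28 higher as deposited and 0.21 and 0.24 higher after quantile normalization. The further ATF4 targets stood 0.11 and 0.35 higher as deposited and 0.09 and 0.30 higher after it. Over the groups the factors stood 0.32 higher as deposited and 0.24 after quantile normalization, and the further targets 0.25 and 0.10.

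ATF4 binds with C/EBP factors at a composite site, and the promoters show which of these genes carry its letters near their start. The letters TGATGNAA were sought on both strands in the 250 bases before the RefSeq start of each gene (GRCh38.p14). A match was present in 8 of 57 promoters of the tested genes in the 5 lists above other than the mitochondrial synthetases (14.04%), in 155 of 9890 promoters of all genes tested (1.567%) and in 870 of 27305 promoters in all (3.186%). The 8 are shown from 5′ to 3′ along the gene with up to 30 bases on each side, the match in capitals (in AARS1, CHAC1, HERPUD1 and IARS1 on the other strand), because they allow the site to be set beside the expression values.
ASNS: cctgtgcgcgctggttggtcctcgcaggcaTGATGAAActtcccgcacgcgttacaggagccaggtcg
ATF3: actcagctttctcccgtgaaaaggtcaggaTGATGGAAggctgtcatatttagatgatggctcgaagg
CHAC1: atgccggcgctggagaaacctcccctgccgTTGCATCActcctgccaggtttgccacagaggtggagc
PPP1R15B: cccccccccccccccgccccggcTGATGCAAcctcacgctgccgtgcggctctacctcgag
AARS1: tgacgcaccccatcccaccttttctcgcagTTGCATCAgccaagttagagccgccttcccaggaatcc
HERPUD1: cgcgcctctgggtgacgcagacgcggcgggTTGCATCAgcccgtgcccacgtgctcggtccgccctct
BCAT1: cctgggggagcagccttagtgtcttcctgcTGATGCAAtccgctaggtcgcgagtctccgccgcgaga
IARS1: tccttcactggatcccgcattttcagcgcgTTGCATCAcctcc
The stretches lie at chr7:97872439-97872506 (minus strand) for ASNS, chr1:212565186-212565253 (plus) for ATF3, chr15:40953232-40953299 (plus) for CHAC1 and chr1:204412007-204412067 (minus) for PPP1R15B. Those of AARS1, HERPUD1, BCAT1 and IARS1 lie at chr16:70289656-70289723 (minus), chr16:56931936-56932003 (plus), chr12:24949112-24949179 (minus) and chr9:92293698-92293740 (minus). All are upstream of the annotated start, and a match is not evidence of binding. The lists hold textbook ATF4 targets, so their higher share of matches may follow in part from how they were chosen.

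The 8 genes with the letters did not behave as 1 group. ASNS, ATF3, CHAC1, PPP1R15B and AARS1 were above 0 within both replicates. PPP1R15B, the constitutive counterpart of PPP1R15A, read 478, 300 and 455 untreated and 559 and 520 at 12 h, above all untreated arrays on both. AARS1, the alanyl-tRNA synthetase, read 341, 366 and 479 against 388 and 557, with overlap. HERPUD1, of ER-associated degradation, stood at -0.26 and 0.19, BCAT1, of branched-chain amino acid breakdown, at 0.08 and -0.04, and IARS1 at 0.11 and -0.15, so their replicates went opposite ways. Among all 155 tested genes with the letters, 61 (39.35%) were above 0 within both replicates, against 34% of all genes, and 35 were below, with medians of 0.03 and 0.05. For the antioxidant, heat shock and metal response elements, described below, the share above 0 within both was 35.12%, 33% and 34.4%.

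NRF2 targets stood above 0 within both replicates in 14 of 25 tested genes and below in 2, and the replicates differed. Within replicate 1, 15 of 25 were above 0 (median 0.12), close to the share of all genes (6898 of 12063). Within replicate 3, 22 of 25 were above 0 (median 0.25), against 6247 of 12063. Relative to the median of all genes they stood 0.06 and 0.24 higher as deposited and 0.01 and 0.23 higher after quantile normalization. KEAP1, the inhibitor of NRF2, read 242, 176 and 197 untreated and 316 and 277 at 12 h, and ABCC1, a pump for glutathione conjugates, 267, 278 and 288 against 344 and 376. Both lay above all untreated arrays; 1 other ABCC1 probe set was below 0 within both replicates, and the mean of both had a group difference of -0.08. MAFG, the small partner protein of NRF2, read 42.0, 109 and 78.2 against 96.3 and 132, and 1 other probe set was also above 0 within both. HMOX1, which degrades haem and is a classic NRF2 target, read 214, 360 and 183 against 241 and 387, 1.12-fold within replicate 1 and 2.12-fold within replicate 3. NFE2L2, which encodes NRF2, read 937, 702 and 826 against 741 and 735.

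The classic targets GCLM, TXNRD1 and NQO1, of glutathione synthesis, thioredoxin reduction and quinone reduction, stood slightly below 0 within replicate 1 (-0.09, -0.10 and -0.13) and above 0 within replicate 3 (0.22, 0.37 and 0.25). The core of the antioxidant response element, TGACNNNGC on either strand, was present in the 250 bases before the start in 4 of 18 NRF2 target promoters (22.22%) and in 12.44% of promoters of all genes tested. In the other lists the share ran from 0% (cholesterol synthesis among them) to 63.64% (metallothioneins and zinc transporters), with 28.57% in glutathione genes. The share was thus not particular to NRF2 targets. GCLM and TXNRD1 are shown, with the letters in capitals (on the other strand in GCLM), as members with a match whose replicates nevertheless differed in sign.
GCLM: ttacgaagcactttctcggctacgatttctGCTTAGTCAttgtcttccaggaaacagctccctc
TXNRD1: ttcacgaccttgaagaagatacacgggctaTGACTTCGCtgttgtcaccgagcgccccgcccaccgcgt
They lie at chr1:93909431-93909494 (minus strand) and chr12:104215650-104215718 (plus). GCLM read 2295, 1650 and 2079 untreated and 2152 and 2424 at 12 h, and TXNRD1 1169, 967 and 1526 against 1091 and 1978.

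The thiol systems around NRF2 showed no common direction. SRXN1, the sulfiredoxin that repairs overoxidised peroxiredoxins, read 259, 151 and 248 untreated and 325 and 365 at 12 h, above all untreated arrays on both, with a difference of 0.69 ± 0.30 (SE). Of 17 tested thioredoxin and peroxiredoxin genes, however, 3 were above 0 within both replicates and 7 below, with medians of -0.05 and -0.01, which turned to 0.03 and 0.13 under median centring, and over the groups 14 of 17 were above 0 (median 0.13). GLRX, a glutaredoxin, read 427, 181 and 469 against 215 and 432, low on 12 h replicate 1 and untreated replicate 2. Of 25 glutathione genes 11 were above and 7 below 0 within both replicates. GSR, which regenerates glutathione, read 160, 110 and 122 against 181 and 140, and GPX8, an ER peroxidase, 988, 657 and 1144 against 683 and 982.

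Metallothioneins and zinc transporters were above 0 within both replicates in 4 of 16 genes and below in 2. The core of the metal response element, TGCNCNC, was present before the start in 5 of 11 promoters of this list (45.45%). That is below the 56.2% of promoters of all genes tested. MT2A and MT1X, metal-binding proteins whose probe sets share sequence with other members, read 1667, 583 and 1295 against 1777 and 1854, and 1221, 455 and 1028 against 1397 and 1275. Their group differences were 0.75 ± 0.41 and 0.69 ± 0.41 (SE). Within the replicates, which leave out the low untreated replicate 2, they were 0.09 and 0.52 for MT2A and 0.19 and 0.31 for MT1X. However, 1 other probe set of MT1X was below 0 within both replicates. SLC30A1, the zinc exporter of the plasma membrane, read 436, 203 and 421 against 447 and 445.

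Heat shock proteins and their co-chaperones were above 0 within both replicates in 10 of 20 tested genes and below in 2, with medians of 0.16 and 0.12. HSPH1, a nucleotide exchange factor of the HSP70 system, read 1302, 1331 and 1722 untreated and 1752 and 2352 at 12 h, 1.35-fold and 1.37-fold within the replicates. DNAJB1, an HSP70 co-chaperone, read 429, 458 and 468 against 555 and 765, and BAG3, which links HSP70 to autophagy, 629, 390 and 546 against 765 and 808. In these 3 genes both 12 h arrays lay above all untreated arrays. FKBP4, a co-chaperone of HSP90, read 316, 405 and 260 against 453 and 343, with overlap, and the mean over its probe sets had a difference of -0.31. A heat shock element, GAANNTTC, was present before the start of 5 of 18 of these genes (27.78%) and of 4.014% of all genes tested. This share too may follow in part from how the list was chosen. ER chaperones and unfolded protein response genes stood at 9 above and 5 below of 25, with HSPA5, the main ER chaperone, at 2546, 2525 and 3582 against 2982 and 4049.

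**Figure D3:**
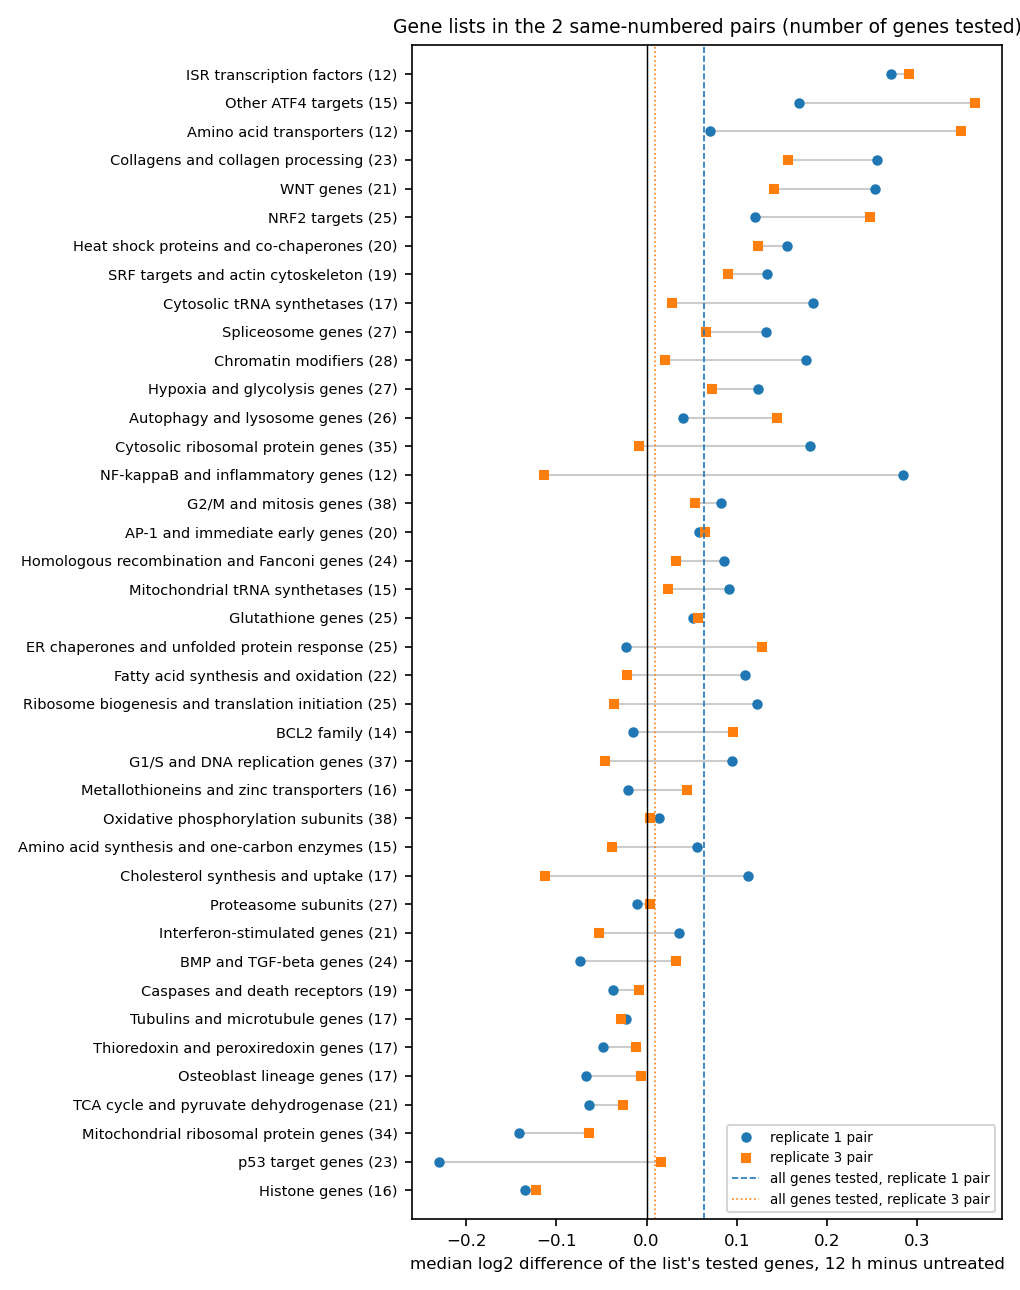
Median log2 difference (12 h minus untreated) of the tested genes of 40 gene lists within replicate 1 (blue circles) and within replicate 3 (orange squares), with the number of genes in brackets and the medians of all genes tested as vertical lines. The integrated stress response (ISR) factors (0.27 and 0.29) stand to the right of both lines, and mitochondrial ribosomal protein genes (-0.14 and -0.06, with replicate 3 at 0.07 under median centring) and histone genes (-0.13 and -0.12, with replicate 3 at 0.02) are among those below 0.

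Collagens and the enzymes that modify and secrete them, the main export of osteoblast-like cells, stood above 0 within both replicates in 17 of 23 tested genes (73.9%, against 34% of all genes) and below in 2. Over the groups 19 of 23 were above 0. Their medians were 0.26 within replicate 1 and 0.16 within replicate 3, which is 0.19 and 0.15 above all genes as deposited and 0.20 and 0.12 after quantile normalization. Over the groups the median stood 0.13 above that of all genes as deposited, but only 0.03 after quantile normalization. The collagen chain COL1A1 read 3118, 2794 and 3704 untreated and 3702 and 3699 at 12 h, level within replicate 3. P4HB, the protein disulfide isomerase that is also a subunit of prolyl hydroxylase, read 2082, 2648 and 2436 untreated and 3098 and 3143 at 12 h, and both other probe sets were also above 0 within both replicates. PLOD1, a lysyl hydroxylase of collagen, read 354, 423 and 469 against 629 and 615. The 12 h arrays of both genes were close to each other and above all untreated arrays, with group differences of 0.39 ± 0.24 and 0.59 ± 0.29 (SE). LOXL1, which cross-links elastin and collagen, read 482, 757 and 660 against 637 and 942, and COL6A2, a chain of microfibrillar collagen, 175, 457 and 219 against 515 and 336. The 2 members below 0 were COL6A3, another chain of the same collagen (190, 270 and 273 against 182 and 223), and the dim COL3A1. Within replicate 1, which holds the 12 h array with the ACTB ratio of 2.29, 20 of 23 members were above 0, and within replicate 3 18 of 23.

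**Figure D4:**
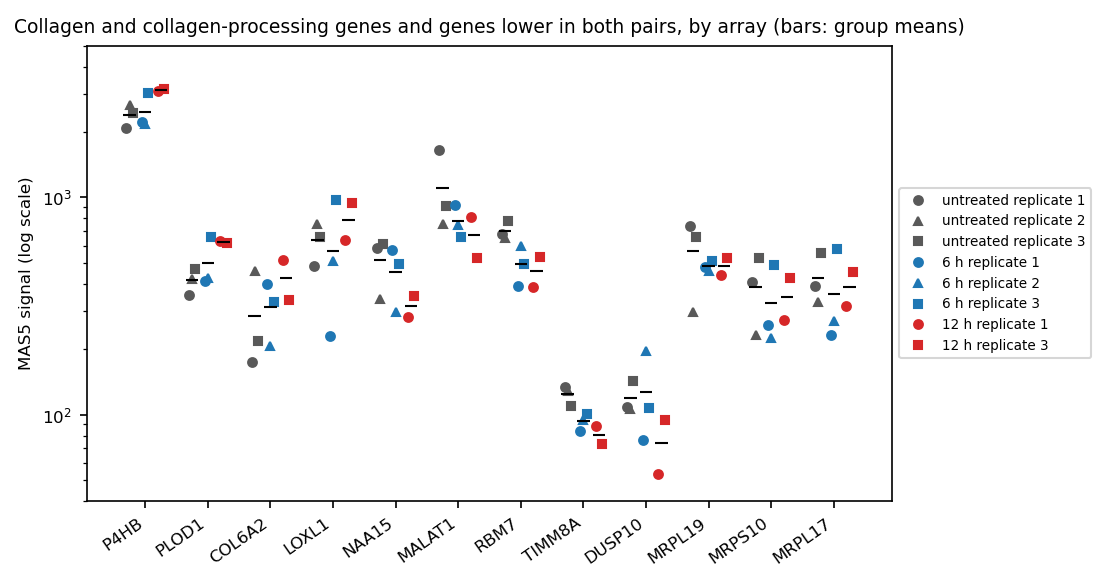
MAS5 signal (log axis) on each of the 8 arrays of 4 collagen or collagen-processing genes and of 8 genes that were lower at 12 h within both replicates, with colours, shapes and bars as in the plot of integrated stress response genes. Both 12 h points lie above all untreated points for P4HB and PLOD1, below all of them for RBM7, TIMM8A and DUSP10, and between them for MRPL19.

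Markers of the osteoblast lineage itself had no shared direction, with 4 of 17 above and 6 below 0 within both replicates. SP7, which acts after RUNX2 in osteoblast differentiation, read 93.3, 96.7 and 105 untreated and 176 and 123 at 12 h, above all untreated arrays. PTH1R, the parathyroid hormone receptor, read 26.3, 14.7 and 37.9 against 5.41 and 10.95, below all of them but dim on every array. TNFRSF11B, the decoy receptor that restrains osteoclasts, read 183, 107 and 122 against 126 and 84.1. Among BMP and TGF-beta genes, with 6 above and 7 below of 24, ID1, a BMP-induced inhibitor of differentiation, read 1428, 1546 and 2246 against 769 and 1733. WNT genes stood above 0 within both replicates in 10 of 21 and below in 3: the ligand WNT5B read 22.0, 33.1 and 28.4 against 47.7 and 43.2, while CTNNB1, which encodes beta-catenin, read 2438, 1891 and 1257 against 2010 and 985.

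Genes of the actin cytoskeleton and targets of SRF were above 0 within both replicates in 11 of 19 and below in none of the 19, with small medians of 0.13 and 0.09. MYH9, non-muscle myosin heavy chain, read 835, 1103 and 769 untreated and 1039 and 1046 at 12 h, and TAGLN, an actin-bundling protein, 2154, 2572 and 2064 against 2505 and 2548. Untreated replicate 2 was the highest of the 5 arrays in both genes, so the groups overlapped.

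Mitochondrial ribosomal protein genes, which build the ribosome that translates mitochondrial mRNAs, were below 0 within both replicates in 19 of 34 tested genes (55.9%, against 25% of all genes) and above in 7. Their medians were -0.14 and -0.06 as deposited and -0.14 and -0.08 after quantile normalization, but -0.07 and 0.07 under median centring, which raises the median of all genes to 0.14 and 0.15; relative to all genes they stood at -0.21 and -0.07 as deposited and under centring. The group difference went the other way, with 23 of 34 above 0 and a median of 0.08, close to that of all genes, and without untreated replicate 2 the median was -0.10. MRPL19 read 741, 297 and 654 untreated and 439 and 526 at 12 h, and MRPS10 408, 231 and 525 against 271 and 426. MRPL17 read 390, 329 and 555 against 316 and 454. In all 3 the within-replicate differences were negative, and in MRPL19 and MRPS10 untreated replicate 2 was lower than both 12 h arrays, with group differences of only -0.13 ± 0.36 and -0.11 ± 0.41 (SE). Within replicate 3 alone 14 of 34 were above 0, and within replicate 1 alone 8 of 34.

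Oxidative phosphorylation subunits stood at 10 above and 9 below of 38, with medians of 0.01 and 0.00. Genes of the TCA cycle and pyruvate dehydrogenase were below 0 within both replicates in 11 of 21 (52.4%) and above in 8, with medians of -0.06 and -0.03, which turned to 0.01 and 0.11 under median centring. Over the groups 15 of the 21 were above 0 (median 0.14). SDHD, a membrane anchor of succinate dehydrogenase, read 1327, 649 and 1063 untreated and 917 and 907 at 12 h, while SDHA, its flavoprotein subunit, read 561, 527 and 882 against 650 and 951. IDH3A, a subunit of the NAD-dependent isocitrate dehydrogenase, read 531, 468 and 584 against 338 and 507.

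Genes that p53 activates in other cells stood, in these cells without p53, at 6 above and 8 below 0 within both replicates of 23 tested, with medians of -0.23 within replicate 1, 0.02 within replicate 3 (0.00 after quantile normalization) and 0.11 for the groups. CDKN1A, the cell cycle inhibitor, read 136, 142 and 115 untreated and 115 and 112 at 12 h. MDM2, the ligase that degrades p53, read 571, 383 and 437 against 579 and 442, which is 0.02 within each replicate. FAS, a death receptor, read 358, 293 and 286 against 290 and 249. TP73, a relative of p53, was too dim to test at 32.2, 6.26 and 26.3 against 26.0 and 9.71. TP63 was not analysed here. Caspases and death receptors stood at 6 above and 8 below of 19: CASP8, the initiator caspase of death receptors, read 207, 189 and 197 against 166 and 165, and APAF1, of the apoptosome, 329, 174 and 170 against 124 and 149. Both lay below all untreated arrays, and under median centring the group difference of CASP8 turned to 0.33.

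Cell cycle genes were mixed. Of 38 tested G2/M genes 18 were above and 8 below 0 within both replicates, with medians of 0.08 and 0.05. KIF4A, a mitotic kinesin, read 562, 522 and 606 untreated and 859 and 734 at 12 h, above all untreated arrays, and CDC25B, a phosphatase that activates cyclin-dependent kinases, 297, 445 and 328 against 550 and 418. MAD2L1, of the spindle checkpoint, read 2379, 1244 and 1817 against 2003 and 1357. G1/S genes stood at 10 above and 10 below of 37. Histone genes stood at 2 above and 7 below of 16, with medians of -0.13 and -0.12, the second of which turned to 0.02 under median centring, but over the groups 10 of 16 were above 0 (median 0.13). H4C8 read 159, 111 and 227 against 115 and 171, and its family shares sequence. H2AX, the variant phosphorylated at DNA breaks, went the other way at 587, 814 and 602 against 688 and 861.

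Cytosolic ribosomal protein genes show how a list can differ between replicates. Within replicate 1, 33 of 35 were above 0 (median 0.18), and within replicate 3, 12 of 35 (median -0.01), while quantile normalization brought the medians to 0.01 and 0.00. RPS15 read 3497, 4336 and 6301 untreated and 4167 and 6524 at 12 h, so the step between replicates was larger than that within them. Spliceosome genes stood at 14 above and 6 below of 27, and for PRPF8, the core of the spliceosome (536, 634 and 836 against 892 and 945), SF3B2, which binds the branch site (464, 364 and 440 against 651 and 538), and HNRNPU (2301, 2141 and 2245 against 2873 and 2469), both 12 h arrays lay above all untreated arrays, although the mean over the HNRNPU probe sets had a difference of -0.63. In translation initiation EIF4G1, the scaffold of the cap complex, read 434, 480 and 565 against 601 and 691, while EIF4E, the cap-binding protein, read 1127, 715 and 760 against 654 and 665. The groups did not overlap for either gene, on opposite sides, and median centring turned the group difference of EIF4E to 0.22.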

How the data were processed

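RNA of the Saos-2 cells was labelled with biotin and measured on 8 Affymetrix arrays, 1 per sample, per the labels. The authors deposited 1 linear intensity per probe set and array, and the submitters' processing notes name MAS5, without a version or settings. MAS5 combines the probes of a set into 1 signal and brings all arrays to the same trimmed mean. Precision is set by how few arrays there are.

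Of 54675 probe sets 62 controls were left out; the platform annotation gave 1 gene symbol for 41091, several for 1801 (not named) and none for 11721. Each of 19775 genes was represented by its brightest probe set. Signals under the 10th percentile (2.39) were set to it before log2, which understates differences of dim genes, and 12063 genes with a mean log2 signal above 4.22, the median of all probe sets, were tested. The fit was limma 3.58.1 in R 4.3.3 (lmFit, eBayes with a variance trend) on 3 groups and 8 arrays, two-sided, with Benjamini-Hochberg adjustment over all genes tested; log2 differences with an SE come from it. Its code was run on simulated data with independent noise. That noise lacks any tie between same-numbered arrays, so the run does not show how the fit performs on these arrays. No 2 arrays shared more than 1 identical value.

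The labels do not say what a replicate number marks. Across genes, deviations from the group means correlated at 0.108 to 0.637 in the 7 same-numbered pairs. In the 14 others they correlated at -0.576 to 0.333. Deviations cancel within a group, and both 12 h arrays mirror each other exactly, so part of this contrast was fixed in advance. The check did not single out the pair of replicate 1. Its 12 h array correlated at 0.108 with untreated replicate 1 and at 0.333 with untreated replicate 2. A shared number was nevertheless treated as a pair, and the fit was repeated with the number as a block.

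The arrays compared, the 40 gene lists (1007 genes from textbook knowledge, 850 tested) and the tests were chosen with earlier results of these data known. Named genes are, first, the 12 at each end by the smaller same-direction difference within both replicates among genes with a mean signal of at least 100. Next come up to 4 members of each described list in each direction by the same measure, and a fixed set of stress genes. Genes named for a promoter match, and cell type markers, carry their values whatever they were, and PPP1R15B, HERPUD1, BCAT1 and IARS1 were named for the match alone. Lists are described by counts and medians with no set test. Promoters are RefSeq's, GRCh38.p14, 250 bases before the start; the 50 after it were not searched. Alternatives were other scalings, floors, filters, probe set rules, array weights and leaving out each array.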

Additional observations from a re-analysis of the deposited data

How the results depend on the processing

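The counts of genes passing the limma test were 0 higher and 0 lower under each alternative run: with the replicate block, as with every other scaling, floor, filter, probe set rule, weighting and left-out array, so the paired fit with the replicate number changed no call. Leaving out 1 array in turn gave counts from 0 to 0. The share of genes with the same sign in both same-numbered pairs, 59.0% as reported, was 62.8% under median centring, 50.9% with no filter on dim genes, 62.8% with the filter at the 75th percentile, 56.0% with the mean of probe sets and 57.4% with every probe set on its own. Counts within both replicates moved with the scaling. Under median centring 5949 genes were above 0 within both and 1627 below, against 4101 and 3018 as reported. Centring adds 1 constant to every difference within a replicate, here upward. Counts above 0 could therefore only stay or rise, and counts below 0 only stay or fall. Mitochondrial ribosomal protein genes below 0 within both went from 19 to 8 of 34, and stress response factors above 0 stayed at 9 of 12. These counts do not set the lists apart, since relative to all genes both stood the same with and without centring. The direction of the group difference also depended on the setting. Of 40 list medians of the group difference 38 were above 0 as reported, 28 without untreated replicate 2, 29 with the replicate block, 27 after quantile normalization and 40 under median centring. Of 134 genes named or on the fixed list, of which 0 passed the test, 11 changed the sign of the group difference after quantile normalization, 35 under median centring, 21 of 130 with the mean of probe sets, 11 with the block and 13 without untreated replicate 2. Median centring moved the median of all genes to 0.66 from 0.08. Counts of list members within each same-numbered pair alone were added after the data were seen. Signal limits the rest: under a signal of 30 the 2 within-replicate differences correlated at 0.02. The causes were not tested.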

Other observations

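Of 27 tested genes of hypoxia and glycolysis, 14 were above 0 within both replicates and 5 below, against 34% and 25% of all genes. NDRG1, a target of the hypoxia-inducible factor, read 447, 291 and 436 in untreated replicates 1, 2 and 3 and 597 and 591 in 12 h replicates 1 and 3. PFKP, the platelet-type phosphofructokinase, read 685, 793 and 736 against 998 and 912. For both genes the 12 h arrays lay above all untreated arrays, whereas BNIP3, another hypoxia target, which acts in mitophagy, lay below them at 568 and 600 against 608, 805 and 724. After quantile normalization the counts were 13 and 8.

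Of 26 autophagy and lysosome genes 13 were above and 6 below 0 within both replicates. NBR1, a receptor that brings ubiquitinated cargo to autophagosomes, read 237, 152 and 217 untreated and 323 and 289 at 12 h. Proteasome subunits stood at 8 above and 8 below of 27: PSMD1, PSMD2 and PSMD3, all of the regulatory particle, were above 0 within both replicates (0.63 and 0.19, 0.46 and 0.24, 0.81 and 0.34), while PSMC6, an ATPase of the same particle, stood at -0.21 and -0.13. Of 20 AP-1 and immediate early genes 10 were above and 1 below. The 1 below was DUSP1, a phosphatase of stress-activated kinases as DUSP10 is, at 1937, 1931 and 1751 untreated and 1666 and 1549 at 12 h. Of 12 genes of NF-kappaB and inflammation 5 were above and 4 below: NFKB1, a subunit of the factor, read 132, 126 and 121 against 177 and 150, and TNFAIP3, its feedback inhibitor, 122, 174 and 64.4 against 79.7 and 44.5. None of these genes passed the limma test, and the group differences of BNIP3 and DUSP1 turned above 0 under median centring. With the mean of probe sets those of PFKP and NBR1 turned below 0 (-0.81 and -0.07).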
